A study of Nicotiana tabacum with 6 samples.

Results

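Late embryogenesis abundant (LEA) proteins and the ABA/WDS-induced proteins were followed in tobacco (Nicotiana tabacum) of the variety NC82, in young leaves. The group was taken as every gene model whose description names late embryogenesis abundant or ABA/WDS and does not name dehydrin, which gave 138 of the 69500 models listed. By the wording of their descriptions, 92 models were of the LEA-14 family, 13 of LEA-25/LEA-D113, 12 of LEA-5, 12 of LEA-3, 3 of LEA-18 and 6 of ABA/WDS. RNA-seq libraries came from 3 samples of plants overexpressing NtPhyA, a gene named for a phytochrome light receptor, and from 3 samples of wild-type plants. Both plant materials were seedlings that had been kept at 4 °C for 24 h before sampling, so there was no unchilled group and the cold response itself was not measured. The promoter that drives the transgene, the number of transgenic lines and any pooling of plants are not stated in the labels. The labels do not state that replicates came from different plants, and p-values then measure the spread between these samples, which may be technical.

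LEA proteins are small and mostly hydrophilic proteins that accumulate in maturing seeds and, for many members, in leaves under cold, drought or salt. Many of them are unfolded in water and protect membranes and enzymes when cells lose water. ABA/WDS proteins, named for induction by abscisic acid (ABA) and water deficit stress, are known in tomato as ASR proteins, for abscisic acid, stress and ripening. The LEA-14 domain is different in kind, since it folds into a beta sandwich and is shared by LEA14 proteins and by the NDR1/HIN1-like membrane proteins of pathogen response, of which HIN1 was first described in tobacco. Tobacco is an allotetraploid, so many genes are present as near-identical copies from both parental genomes, and how reads were divided between such copies is uncertain.

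The deposited values are a normalized abundance per model and library that summed to between 440137 and 568208, with the highest total in wild-type replicate 3. Between 31369 and 33469 models were above 0 in a library. Sequencing depth is unknown, since the tables hold no read totals. Levels compared between models below assume that the values are per length, as TPM and FPKM are. The labelled tissue was visible in the leaf markers, small subunits of Rubisco and chlorophyll a/b-binding proteins, of which 93 of 107 models were above 0 in some library. These summed to 38501, 23756 and 13864 in overexpression replicates 1, 2 and 3, and to 29172, 15739 and 8239 in wild-type replicates 1, 2 and 3. Values by library are given in that order of replicates throughout. The files name no model as the transgene. Models with phytochrome A/B/C/D/E in their description numbered 5 and summed to between 1.15 and 2.86 in overexpression leaves and to between 1.33 and 2.83 in wild-type leaves, which does not check the labels.

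The LEA and ABA/WDS models were a visible part of the leaf transcriptome. They summed to 7035, 7287 and 7117 in overexpression leaves, and to 7444, 6481 and 14385 in wild-type leaves. The 3 overexpression libraries and the first 2 wild-type libraries lay close together, and wild-type replicate 3 stood far above them. As a share of each library's total, the members made up 1.48%, 1.61% and 1.62% in overexpression leaves and 1.62%, 1.44% and 2.53% in wild-type leaves. The ratio of the summed abundances, overexpression over wild type, was 0.757, against 0.924 over all models. With libraries scaled to an equal total the members' ratio was 0.843. As deposited, it was 1.03 without wild-type replicate 3 and between 0.655 and 0.763 with any other single library left out. A single LEA-5 model supplied a large part of the sum, and without it the ratio was 0.686. The other members summed to 4209, 4029 and 3356 in overexpression leaves and to 5290, 4103 and 7498 in wild-type leaves. They too were highest in wild-type replicate 3, which the ratio of 0.686 includes.

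Most of the members were low or silent in these leaves. All 6 libraries listed 18 of the 138 at 0, and another 48 were above 0 with a mean below 1. The remaining 72 reached a 6-library mean of 1 and were tested, of which 6 reached that mean in one plant material only. Another 4 members reached a mean of 1 in one plant material but not over all 6 libraries and were not tested. Just inside the minimum was the LEA-14 model Nitab4.5_0003037g0170, with a mean of 1.11, and just outside it the LEA-14 model Nitab4.5_0000893g0080, with a mean of 0.938. Only 32 members had a mean of 10 or more and 11 a mean of 100 or more.

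**Figure D1:**
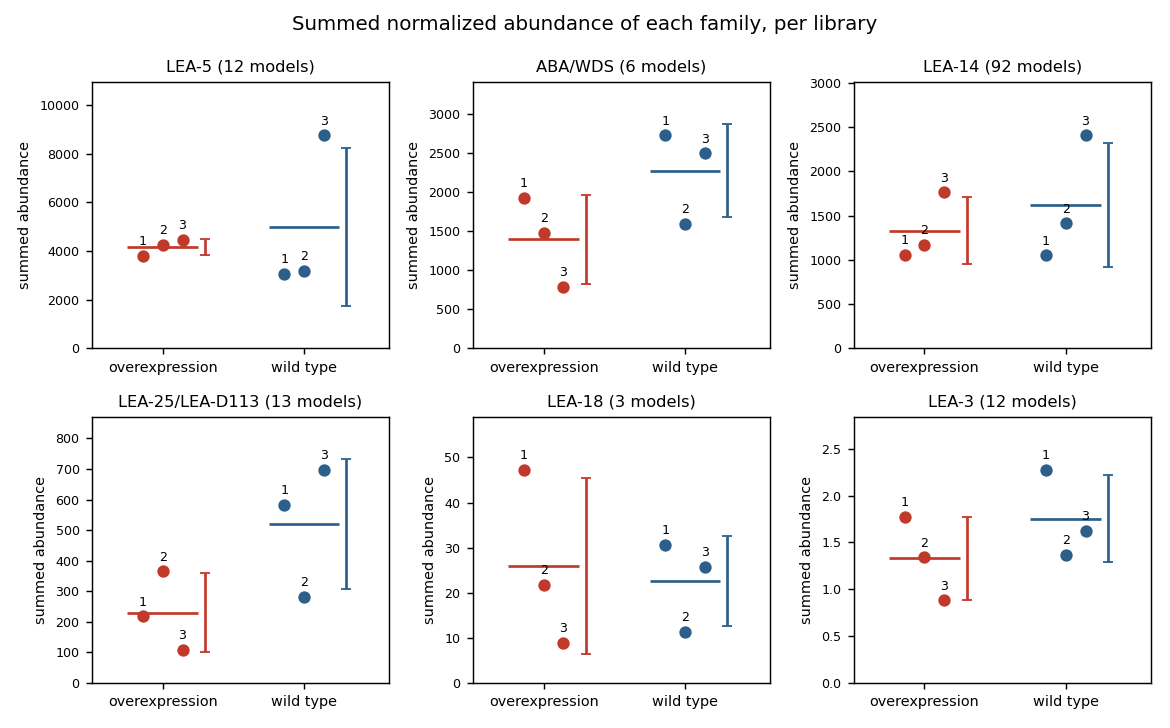
Summed normalized abundance of each family in every library, with overexpression left of wild type; numbered points are replicates, horizontal lines are group means and the bars beside them are SD (n = 3 each). The 3 overexpression sums of LEA-5 lie between 3788 and 4456, and wild-type replicate 3 reaches 8759, while the other 2 wild-type sums lie at 3052 and 3179.

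No member passed the test between the plant materials. Each log2 difference is the overexpression mean minus the wild-type mean of log2(value + 1), a scale on which changes of low values look smaller, and a call needed a Benjamini-Hochberg adjusted p below 0.05 over all 17962 models tested. Of the 72 tested members 0 were called, and 0.00557% of all tested models were called by the same rule. All 72 members had a limma adjusted p of 0.999. At an unadjusted limma p below 0.05 there were 9 members, 12.5% of those tested, against 2.82% of all tested models. Of these 9, 7 had lower and 2 had higher values in overexpression leaves, where the share of all tested models was 1.35% in the lower and 1.47% in the higher direction. The count of 9 and the share of all models both moved with the libraries used. Without overexpression replicate 1 there were 3 members, 4.29%, against 2.71% of all models, and without overexpression replicate 2 there were 4, 5.56%, against 1.91%. Without overexpression replicate 3 there were 7, 9.72%, against 4.29% of all models. Without wild-type replicate 1 there were 4, 5.56%, against 3.58%, and without wild-type replicate 2 there were 10, 13.9%, against 3.11%. Without wild-type replicate 3 there were 5, 6.94%, against 2.16% of all models. With replicate number as a block there were 10, 13.9%, against 6.59% of all models. With a minimum of 1 in at least 3 libraries in place of the mean there were 7, 10.1%, against 2.82%. The values of the plant materials did not overlap in 8 tested members, 11.1%, against 7.87% of all tested models. Overexpression values lay above in 3 of them, against 4.01% of all tested models, and below in 5, against 3.86%.

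By direction alone, 46 of the 72 tested members had lower values in overexpression leaves and 26 had higher values, with a median log2 difference of -0.11. Over all tested models 51.7% had lower values and the median was -0.01. The members' split was 36 lower and 36 higher without wild-type replicate 3, where 50.0% of all tested models had lower values. On omitting overexpression replicate 1 it was 37 lower and 33 higher, against 54.5% lower of all tested models. It had between 42 and 47 lower of 72 with any other single library left out, against 47.2% to 53.2% of all tested models. It was 40 lower and 40 higher of 80 members when the libraries were scaled to an equal total. That scaling moved the median of all models by 0.10, and 41.1% of all tested models then had lower values. The split was not the same in every family, and the difference between families was not tested. All 18 tested members of LEA-5, LEA-25/LEA-D113 and ABA/WDS had lower values in overexpression leaves, while the LEA-14 family was divided into 25 higher and 26 lower. The count of 18 of 18 was put together after the values were seen. One of the 18, the LEA-25/LEA-D113 model Nitab4.5_0000105g0110, passed the minimum only through its wild-type values, so its direction was fixed by the filter. It is also 1 of the 9 members with an unadjusted p below 0.05 and 1 of the 5 whose overexpression values lay below. With a minimum of 1 in at least 3 libraries it was not tested and the count was 17 of 17. With no minimum it was 20 of 24. The count was 12 of 17 without wild-type replicate 3, and 15 of 18 without overexpression replicate 1 or without overexpression replicate 3. With both libraries numbered 3 left out it was 12 of 18, against 44.2% lower of all tested models. It was 15 of 19 with libraries scaled to an equal total, against the 41.1% of all tested models given above. In that setting 3 of the 7 LEA-5 models and 1 of the 6 LEA-25/LEA-D113 models had higher values.

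Lists of cell type markers also differed in direction between the plant materials, and their part in the members' differences was not tested. Their counts are from all 6 libraries as deposited, where 51.7% of all tested models had lower values. Leaf markers had higher values in overexpression leaves in 59 of 71 tested models, with a median log2 difference of 0.41, and none was called. The groups did not overlap in 1 of these 71, 1.41%, against 7.87% of all tested models. The leaf marker sums ran from 13864 to 38501 in overexpression leaves and from 8239 to 29172 in wild-type leaves, with means of 25374 and 17717. The list for dividing cells, which takes in all histone and cyclin descriptions, had higher values in 81 of 112 tested models, with a median of 0.27. In 18 of those 112 the overexpression values lay above every wild-type value, against 4.01% of all tested models, and in 1 below, against 3.86%. Both directions together made up 17.0% of the list, against 7.87% of all tested models, and none was called. Overexpression replicate 1 was the highest overexpression library in 78 of the 112, against 7898 of all 17962 tested models. Glandular trichome markers had higher values in 16 of 20 tested models, with a median of 0.53. Overexpression replicate 3 was the highest overexpression library in 14 of these 20, against 5725 of all 17962 tested models. The list for pollen and flower, whose pattern takes in all MADS-box descriptions, had higher values in 30 and lower values in 25 of 55 tested models.

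**Figure D2:**
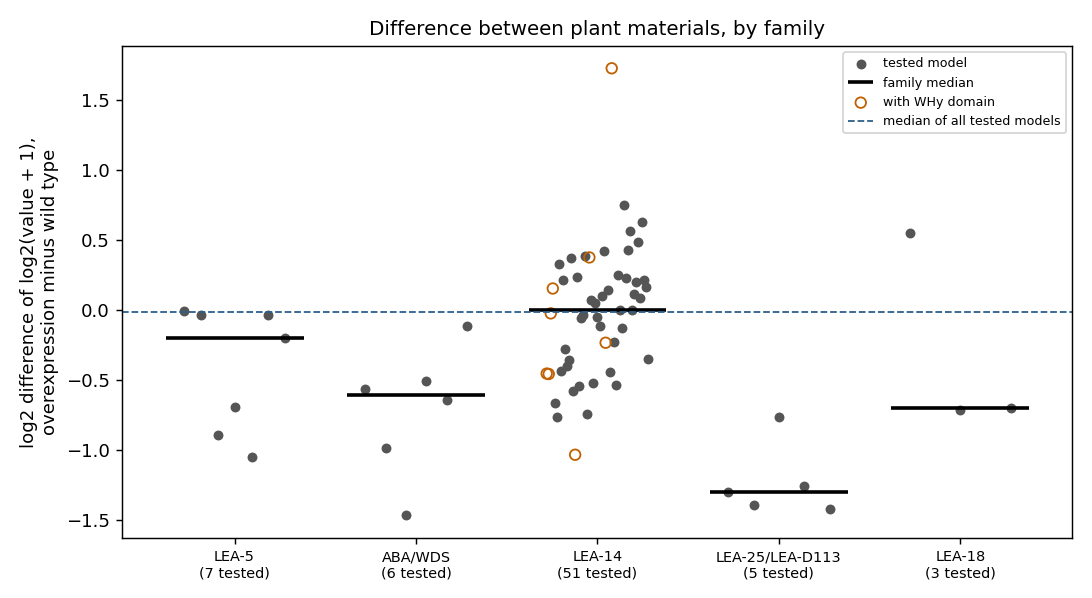
Difference in mean log2(value + 1) of each tested model, overexpression minus wild type, by family; open circles are LEA-14 models with a water stress and hypersensitive response (WHy) domain, thick lines are family medians and the dashed line is the median of all tested models. The 18 points of LEA-5, ABA/WDS and LEA-25/LEA-D113 lie below 0, where 15 of 19 lie with libraries scaled to an equal total, and those of LEA-14 lie on both sides with a median of -0.0014.

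The LEA-5 family held the most abundant member of all. This family is named for cotton LEA5, and its Arabidopsis member LEA5, also called SAG21, is a small mitochondrial protein linked to oxidative stress. Nitab4.5_0002820g0100 was at 2826, 3258 and 3761 in overexpression leaves, and at 2155, 2379 and 6887 in wild-type leaves. Every overexpression value lay between the second and the highest wild-type value, so the groups overlapped. Its log2 difference was -0.0093 ± 0.51 (SE), with a 95% confidence interval from -1.20 to 1.18, and it was 0.097 with libraries scaled to an equal total. It was 0.53 without wild-type replicate 3 and -0.31 without wild-type replicate 1, the extremes with single libraries left out. Nitab4.5_0004367g0080, the next of the family, was at 637, 665 and 351 in overexpression leaves and at 453, 358 and 992 in wild-type leaves. It too was highest in wild-type replicate 3, and its log2 difference of -0.037 ± 0.47 (SE) was 0.069 with libraries scaled to an equal total. It was 0.40 without wild-type replicate 3 and -0.34 without wild-type replicate 2, the extremes with single libraries left out.

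A further pair of LEA-5 models did not overlap between the plant materials, and neither was called, with a limma adjusted p of 0.999 in both. Nitab4.5_0000116g0500 was at 109, 133 and 152 in overexpression leaves and at 201, 203 and 347 in wild-type leaves. Nitab4.5_0000570g0190 was at 45.3, 64.6 and 62.8 in overexpression leaves and at 84.0, 96.2 and 206 in wild-type leaves. In both models every overexpression value was below every wild-type value, as in 3.86% of all tested models. Their log2 differences were -0.89 ± 0.32 and -1.05 ± 0.39 (SE), with 95% confidence intervals from -1.65 to -0.14 and from -1.96 to -0.13. Both models were highest in wild-type replicate 3, and without it the differences were -0.63 and -0.65. Over the 6 libraries their log2 values had a Pearson correlation of 0.983, among the highest of all pairs of tested members. Both models were named for a small unadjusted limma p in the same direction. That shared difference enters the correlation, which is a description only. The other 3 tested LEA-5 models had means between 30.6 and 103 and log2 differences between -0.70 and -0.035. All 7 tested LEA-5 models were highest in wild-type replicate 3 among the wild-type libraries, as were 41.7% of all tested models. The family's median difference of -0.20 was 0.21 without that library, but -0.78 without wild-type replicate 1, -0.65 without wild-type replicate 2. Omitting overexpression replicate 3 gave -0.53 and omitting overexpression replicate 1 gave -0.40. Of the 12 LEA-5 models, 2 were listed at 0 in all libraries and 3 were above 0 but below the minimum.

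**Figure D3:**
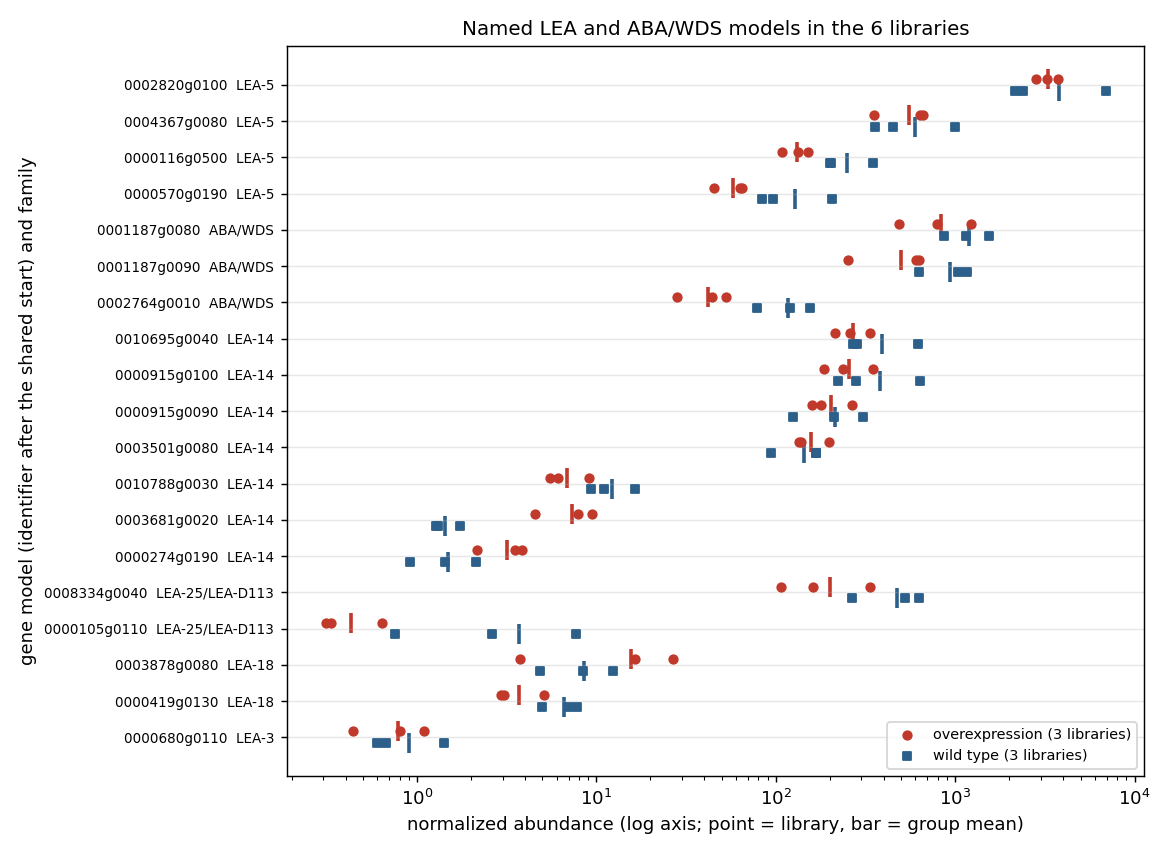
Normalized abundance (log axis) of the 19 models named by rule, by family; points are the 3 libraries of each plant material, circles for overexpression above squares for wild type, and short bars are group means. Among the models without overlap is Nitab4.5_0002764g0010, at 28.2 to 52.6 in overexpression and 78.3 to 155 in wild type. Another is Nitab4.5_0003681g0020, at 4.53 to 9.44 in overexpression and 1.27 to 1.73 in wild type. Neither model was called.

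All 6 ABA/WDS models were expressed above the minimum, on 2 scaffolds by their identifiers. ASR proteins bind zinc and DNA and act as stress protectants in plants of the nightshade family, and they are absent from Arabidopsis. Nitab4.5_0001187g0080 was at 1228, 796 and 487 in overexpression leaves, and at 1550, 861 and 1153 in wild-type leaves. Its neighbour by identifier, Nitab4.5_0001187g0090, was at 630.3, 604 and 253 in overexpression leaves and at 1030.3, 629 and 1161 in wild-type leaves. Both were lowest in overexpression replicate 3, and the groups overlapped in both, in the second by the narrow margin between 630.3 and 629. The log2 differences were -0.56 ± 0.43 and -0.99 ± 0.46 (SE), with 95% confidence intervals from -1.58 to 0.46 and from -2.07 to 0.09. Without overexpression replicate 3 they were -0.22 and -0.56, and with both libraries numbered 3 left out they were -0.22 and -0.38. Leaving out overexpression replicate 1 moved the first to -0.89, and leaving out wild-type replicate 1 moved it to -0.35. Nitab4.5_0001187g0070, the third model of that scaffold, had a far lower mean of 16.5, against 1013 and 718 for its neighbours, if the deposited values are per length as for TPM or FPKM. The neighbours had a Pearson correlation of 0.891 over the 6 libraries, and each had a lower one, 0.623 and 0.591, with the third model.

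On the other scaffold, Nitab4.5_0002764g0010 was the ABA/WDS model with the largest difference. It was at 44.1, 52.6 and 28.2 in overexpression leaves, against 120, 78.3 and 155 in wild-type leaves, with no overlap. Its log2 difference was -1.47 ± 0.36 (SE), with a 95% confidence interval from -2.31 to -0.62, and leaving out single libraries gave -1.73 to -1.22. With both libraries numbered 3 left out it was -0.99. Its limma adjusted p was between 0.720 and 1.00 over the alternatives. The other members of that scaffold, Nitab4.5_0002764g0060 and Nitab4.5_0002764g0050, had low means of 4.23 and 2.22. Their log2 differences were -0.65 and -0.11. As a family, ABA/WDS summed to 1925, 1472 and 781 in overexpression leaves and to 2726, 1596 and 2496 in wild-type leaves, and the sums overlapped. The ratio of mean sums was 0.613, against 0.924 over all models. The median log2 difference of the family was -0.60, between -0.92 and -0.33 when single libraries were left out. Omitting wild-type replicate 2 gave -0.92, omitting overexpression replicate 1 gave -0.91 and omitting overexpression replicate 3 gave -0.33. All 6 values were negative under both other scalings, and 5 of 6 were negative without overexpression replicate 1, wild-type replicate 1 or wild-type replicate 3.

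LEA-25/LEA-D113 proteins, named for tomato LE25 and cotton D113, are unfolded seed proteins that are also induced by water loss. In these leaves 1 of the 13 models, Nitab4.5_0008334g0040, carried most of the family. It was at 161, 337 and 106 in overexpression leaves and at 522, 265 and 627 in wild-type leaves. Overexpression replicate 2 lay above wild-type replicate 2, so the groups overlapped. The log2 difference was -1.30 ± 0.52 (SE), with a 95% confidence interval from -2.52 to -0.08. It lay between -1.75 and -0.92 when single libraries were left out, and it was -0.67 with both libraries numbered 3 left out.

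Another 4 LEA-25/LEA-D113 models were tested at lower levels. Nitab4.5_0000105g0110 was at 0.31, 0.64 and 0.33 in overexpression leaves and at 2.63, 0.75 and 7.66 in wild-type leaves, without overlap. Its log2 difference was -1.42 ± 0.56 (SE), but its mean over 6 libraries was 2.05, with 0.43 in overexpression leaves and 3.68 in wild-type leaves, so only the wild type reached the minimum. The difference was -0.78 with both libraries numbered 3 left out, and without wild-type replicate 3 it was below the minimum and was not tested. It shares its scaffold with Nitab4.5_0000105g0080 and Nitab4.5_0000105g0100, which were also highest in wild-type replicate 3, at 15.3 and 11.2. In overexpression replicate 3 these neighbours were at 0.75 and listed at 0. Nitab4.5_0002343g0050 had the widest spread, at 48.5, 14.3 and 0.50 in overexpression leaves and 48.8, 10.7 and 34.1 in wild-type leaves. In 5 models of the family all libraries were at 0. The family median of -1.30 moved to -0.80 on omitting wild-type replicate 3 and to -0.78 on omitting overexpression replicate 3. It was -1.67 without wild-type replicate 2, and -0.078 with both libraries numbered 3 left out.

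LEA-18 and LEA-3 added little abundance. LEA-18 proteins are small proteins first described in bean. Nitab4.5_0003878g0080 was at 26.8, 16.4 and 3.74 in overexpression leaves and at 8.44, 4.82 and 12.4 in wild-type leaves, and its log2 difference of 0.55 ± 0.66 (SE) was 0.010 without overexpression replicate 1 and 1.29 without overexpression replicate 3. It was 0.35 without overexpression replicate 2, 0.23 without wild-type replicate 2, 0.83 without wild-type replicate 3 and 1.57 with both libraries numbered 3 left out. Nitab4.5_0000419g0130 was at 2.93, 3.05 and 5.12 in overexpression leaves and at 6.93, 4.97 and 7.80 in wild-type leaves, with a log2 difference of -0.70 ± 0.30 (SE). The groups overlapped in both. LEA-3 proteins carry repeats of an 11-residue motif that can form helices on drying. None of the 12 LEA-3 models reached the minimum and 4 were listed at 0 in all libraries. The highest, Nitab4.5_0000680g0110, was at 1.10, 0.80 and 0.44 in overexpression leaves and at 1.42, 0.67 and 0.60 in wild-type leaves.

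Within LEA-14, the 4 models with the highest means were among the 10 whose description also names the water stress and hypersensitive response (WHy) domain. The other WHy models had means of at most 12.4, below several LEA-14 models without the domain. This split was made after the descriptions and values were seen. The 10 WHy models summed to 740.2, 825 and 1170.0 in overexpression leaves and to 752, 1005 and 1745 in wild-type leaves. The other 82 LEA-14 models summed to 315, 340.1 and 592 in overexpression leaves and to 298, 406 and 662 in wild-type leaves. In both subsets, replicate 3 was the highest library of each plant material and replicate 1 the lowest.

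Nitab4.5_0010695g0040, the highest of the family, was at 213, 258 and 335 in overexpression leaves and at 284, 270.3 and 620.2 in wild-type leaves. Nitab4.5_0000915g0100 was at 186, 238 and 347 in overexpression leaves and at 223, 281 and 638 in wild-type leaves. Both overlapped between plant materials. Their log2 values had a Pearson correlation of 0.974 over the 6 libraries, also among the highest of all pairs of tested members. Their log2 differences were -0.45 ± 0.40 and -0.46 ± 0.46 (SE), and -0.067 and -0.0078 without wild-type replicate 3. Without overexpression replicate 1 they were -0.30 and -0.25. Without overexpression replicate 3 they were -0.63 and -0.70, and without wild-type replicate 1 they were -0.63 and -0.76. Nitab4.5_0000915g0090 was at 179.6, 159 and 266 in overexpression leaves and at 125, 210.0 and 305 in wild-type leaves. Its log2 difference of -0.024 ± 0.40 (SE) was 0.082 with libraries scaled to an equal total, and leaving out single libraries gave -0.36 to 0.28. Nitab4.5_0003501g0080 was at 134, 139 and 197 in overexpression leaves and at 94.4, 168 and 167 in wild-type leaves, with a log2 difference of 0.15 ± 0.34 (SE) that ran from -0.12 without wild-type replicate 1 to 0.29 without wild-type replicate 2.

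The member with the smallest unadjusted p was a WHy model with higher values in overexpression leaves. Nitab4.5_0003681g0020 was at 9.44, 7.92 and 4.53 in overexpression leaves, against 1.30, 1.27 and 1.73 in wild-type leaves, and the groups did not overlap. Its mean was 5.09 times the wild-type mean, with a log2 difference of 1.73 ± 0.31 (SE) and a 95% confidence interval from 0.99 to 2.46. The limma adjusted p was 0.999, and it lay between 0.495 and 1.00 over the alternatives. Leaving out single libraries gave log2 differences from 1.53 to 1.99. It ranked 50th in mean abundance among the members, and 7 of the other WHy models were tested, with log2 differences between -1.03 and 0.37.

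Another WHy model, Nitab4.5_0006120g0030, was high in a single library. It was at 4.63, 3.68 and 4.10 in overexpression leaves and at 3.49, 55.1 and 3.57 in wild-type leaves. Nitab4.5_0005641g0010, another WHy model, was also highest in wild-type replicate 2, at 12.6, against 4.90 and 5.40 in the other wild-type libraries and 6.81, 5.75 and 5.0 in overexpression leaves. Their log2 values had a Pearson correlation of 0.963. These models were picked out after their values were seen.

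Among LEA-14 models without a WHy domain, 43 were tested, 22 with higher and 21 with lower values in overexpression leaves. Nitab4.5_0010788g0030 was at 5.48, 6.09 and 9.06 in overexpression leaves and at 10.97, 9.37 and 16.4 in wild-type leaves, and the groups did not overlap. Its log2 difference was -0.74 ± 0.31 (SE). Nitab4.5_0000274g0190 was at 3.84, 2.16 and 3.53 in overexpression leaves and at 1.43, 0.91 and 2.14 in wild-type leaves, which left a gap of the smallest size between 2.16 and 2.14. Its log2 difference was 0.75 ± 0.31 (SE). The 95% confidence intervals ran from -1.46 to -0.02 and from 0.02 to 1.48.

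Many LEA-14 models varied widely between libraries of one plant material. In 20 of the 51 tested LEA-14 models, replicate 3 was the highest library in both plant materials, a share of 39.2%, against 18.3% of all tested models. The share was 36.2% in the START-like list and 31.5% in the type 2C phosphatase list described below. The leaf marker sums given above were lowest in the same libraries, and the part of that in the LEA-14 values was not tested. The models below were picked out after their values were seen. Nitab4.5_0001287g0050, the most abundant LEA-14 model without a WHy domain, was at 16.6, 20.1 and 103 in overexpression leaves and at 22.9, 49.2 and 128 in wild-type leaves. Nitab4.5_0003810g0020 was at 8.14, 22.1 and 89.5 in overexpression leaves and at 16, 48.1 and 112 in wild-type leaves. In both, replicate 3 of either plant material exceeded every library of replicates 1 and 2. The LEA-14 models Nitab4.5_0001287g0070, Nitab4.5_0000472g0340 and Nitab4.5_0012787g0010 had Pearson correlations of 0.990, 0.985 and 0.993 with Nitab4.5_0003810g0020 over the 6 libraries.

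**Figure D4:**
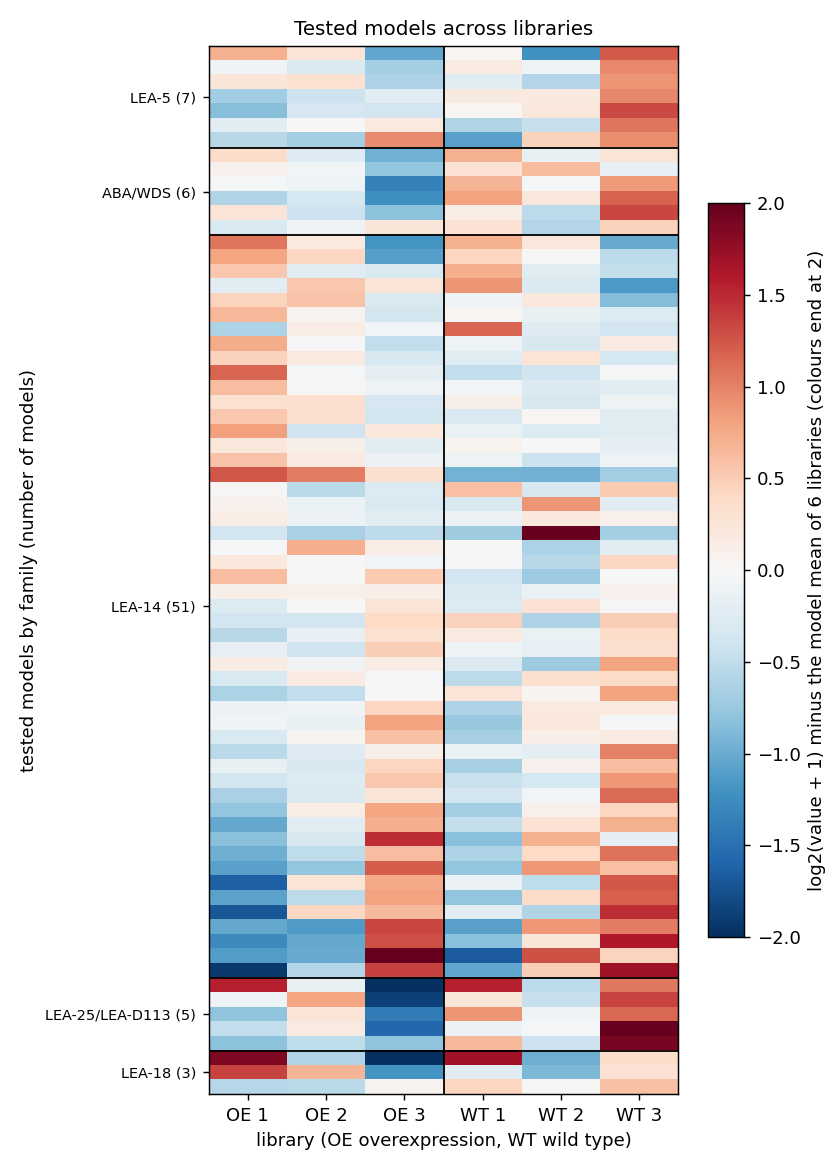
Log2(value + 1) of each tested model minus its mean over the 6 libraries, with models in rows by family and libraries in columns, overexpression (OE) left of wild type (WT). Many LEA-14 rows are high in replicate 3 of both plant materials, while the 5 LEA-25/LEA-D113 rows are low in overexpression replicate 3 and 4 of them are highest in wild-type replicate 3.

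Neighbouring members did not always move together. By their identifiers, 48 members lay on 20 scaffolds that hold more than 1 member, each scaffold with members of a single family. On scaffold Nitab4.5_0001287, the LEA-14 models g0050 and g0070 had a Pearson correlation of 0.980 over the 6 libraries. The model between them by number, Nitab4.5_0001287g0060, was at 16.1, 8.32 and 2.55 in overexpression leaves and at 12.3, 8.48 and 3.02 in wild-type leaves. It was therefore lowest in replicate 3 of both plant materials, with correlations of -0.931 and -0.922 to its neighbours. The range over all 19 tested pairs on a shared scaffold was from -0.931 to 0.980.

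Other genes of ABA signalling and dehydration were counted from lists of text patterns, and none of their tested members was called. These counts are from all 6 libraries as deposited, where 51.7% of all tested models had lower values. Dehydrins, the LEA class left out of the members, had 7 of 7 tested models with lower values in overexpression leaves, with a median log2 difference of -0.83. Among the wild-type libraries, 5 of these 7 were highest in replicate 3, as were 41.7% of all tested models. The most abundant one, Nitab4.5_0000588g0250, was at 9186, 8854 and 7876 in overexpression leaves and at 9196, 9433 and 13515 in wild-type leaves. Like LEA-5, it was highest in wild-type replicate 3. Type 2C protein phosphatases, a family that includes the negative regulators of ABA signalling, had 31 models with higher and 58 with lower values, with a median of -0.12. Basic leucine zipper factors, a family that includes the ABA-responsive element binding factors, had 27 higher and 39 lower, with a median of -0.08. B3 domain factors, a family that includes the seed regulator ABI3, had 21 higher and 9 lower, with a median of 0.09. Enzymes of carotenoid cleavage and zeaxanthin epoxidation, which supply ABA precursors, had 4 higher and 4 lower. The START-like list, a broad pattern that takes in ABA receptors among many other proteins, had 26 higher and 32 lower. HVA22-related proteins had 6 higher and 9 lower, and small heat shock proteins 15 higher and 24 lower. The list for seed storage proteins and oleosins, whose pattern also took in germins, had 8 higher and 9 lower.

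Markers of seed and root were low beside the sums of LEA-5, ABA/WDS, LEA-14 and LEA-25/LEA-D113. They were not low beside LEA-18, which summed to between 8.86 and 47.2 over the libraries, or LEA-3, at between 0.88 and 2.27. Seed markers (oleosins and seed storage proteins) reached the minimum in 5 of 56 models, with 18 listed at 0 in all libraries, and summed to between 40.9 and 54.3 in overexpression leaves and to between 44.9 and 54.05 in wild-type leaves. Root markers reached it in 1 of 16 models, with 7 listed at 0 in all libraries, and summed to between 7.11 and 12.8 in overexpression leaves and to between 10.05 and 12.5 in wild-type leaves.

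The sums of the other marker lists were not low beside those of the LEA families. The list for dividing cells reached the minimum in 112 of 276 models, with 41 listed at 0 in all libraries, and summed to 4364, 3026 and 2903 in overexpression leaves and to 2784, 2479 and 3289 in wild-type leaves. It was highest in overexpression replicate 1. The list for pollen and flower reached it in 55 of 397 models, with 206 listed at 0 in all libraries, and summed to 1207, 1109 and 1498 in overexpression leaves and to 924, 1311 and 1698 in wild-type leaves. It was highest in replicate 3 of both plant materials, as was the LEA-14 sum at 1055, 1165 and 1762 in overexpression leaves and 1050.0, 1411 and 2406 in wild-type leaves. Glandular trichome markers, terpene synthases, reached it in 20 of 160 models, with 71 listed at 0 in all libraries, and summed to 373, 508 and 1052 in overexpression leaves and to 320, 614 and 455 in wild-type leaves. They were highest in overexpression replicate 3. The part of these lists in the LEA-14 values was not tested. Fewer cells of a type and less RNA per cell cannot be told apart in whole-leaf samples.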

How the data were processed

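RNA-seq libraries of 3 overexpression and 3 wild-type samples were grouped by their labels. Each deposited table covers 1 plant material and gives, for every model, 1 normalized abundance for each library. HISAT2, StringTie and RSEM are named in the submitters' processing notes. The tool versions, the genome build and the choice of TPM or FPKM remain not given in the sources used here. Nor is it stated that both tables were normalized together, so levels set across them assume comparable libraries.

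Values were transformed to log2(value + 1). Models with a 6-library mean of 1 or more, 17962 in number, entered a limma 3.58.1 fit in R 4.3.3 (trend and robust options, group as the only term, 4 residual degrees of freedom). A call was a Benjamini-Hochberg adjusted p below 0.05 over all tested models. The fit was run on simulated data with independent noise and with changes larger than the difference of any member. That run therefore does not bear on the lack of calls among the members.

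Members, lists and tests were chosen with earlier results of these data known. Named models were any called member, the 10 members with the highest mean, the 10 with the smallest unadjusted p and the most abundant of each family, 19 in all. The models nearest to the minimum were given once, by their means only. Alternatives were a pseudocount of 0.1, other filters, other scalings, a block on replicate number and omission of each library. Omission of both libraries numbered 3, or of the most abundant member, was added after seeing the data. Model sequences and coordinates were not used here.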

Additional observations from a re-analysis of the deposited data

How the results depend on the processing

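Across the 13 alternatives, 0 members were called in any. The single call over all models was lost (0 genes called) with a pseudocount of 0.1, without a filter, with libraries scaled by the median ratio, with both libraries numbered 3 left out and without any single library (0 to 0). Replicate number as a block also gave 0 genes called over all models and 0 members. Same-numbered libraries deviated together for numbers 1 and 3 (Pearson correlations of 0.560 and 0.416) but not for number 2 (-0.114). The correlation was -0.580 for overexpression replicate 3 with wild-type replicate 1, and -0.438 for overexpression replicate 1 with wild-type replicate 3. Deviations from a group's own mean are not independent, so these values cannot decide whether libraries were paired. The numbers were not taken as pairs because the labels state no pairing. The ratio of summed abundance, 0.757, was 0.655 to 1.03 without single libraries and 1.03 with both libraries numbered 3 left out. It was 0.843 with libraries scaled to an equal total and 0.751 with libraries scaled by the median ratio. Of the 18 named members tested, 14 kept their direction in all alternatives that gave a value. The exceptions without single libraries were Nitab4.5_0002820g0100 (-0.31 to 0.53), Nitab4.5_0004367g0080 (-0.34 to 0.40), Nitab4.5_0000915g0090 (-0.36 to 0.28) and Nitab4.5_0003501g0080 (-0.12 to 0.29). The first 3 were also positive with libraries scaled to an equal total (0.097, 0.069 and 0.082) and with both libraries numbered 3 left out (0.42, 0.69 and 0.062). The cause was not tested. Depth is unknown, so no counting error could be given for members with low values.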
